A study of Homo sapiens with 9 samples.

Results

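Platelet-derived growth factors (PDGFs) and fibroblast growth factors (FGFs) are secreted proteins that bind receptor tyrosine kinases on mesenchymal cells. The genes described here are 9 of their ligands and receptors, taken by symbol from the deposited expression table: the ligands PDGFA, PDGFB, PDGFC, PDGFD, FGF2 and FGF5 and the receptors PDGFRA, PDGFRB and FGFR1. All 9 were found among the 17123 genes of the table, and 7 of them were among the 11808 genes that passed the filter on low values. PDGFD and PDGFRA did not pass.

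The cells were LX-2, a line derived from human hepatic stellate cells, and their RNA was sequenced on a BGISEQ-500 instrument in 9 libraries. The groups were LOX siRNA (n = 3), LOXL1 siRNA (n = 3) and a negative control siRNA (n = 3). All cells, the controls included, received TGFβ1 at 10 ng/ml. The siRNAs against LOX and LOXL1, which encode amine oxidases that prepare collagen and elastin for cross-linking, were used at 25 nM. A time of 48 hours is given for all 9 libraries, the controls included. The labels give no dose for the control siRNA, and neither the number nor the sequences of the siRNAs per target. They also do not tell whether replicate libraries were grown as separate cultures; the p-values therefore describe library-to-library spread, part of which may be technical.

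PDGF chains form dimers, and a bound dimer pairs receptor molecules whose kinase domains then phosphorylate each other and start RAS-ERK, PI3-kinase and STAT signalling. The PDGF-A and PDGF-C chains act through PDGFRα, the PDGF-D chain through PDGFRβ, and the PDGF-B chain through both. PDGFRβ increases as stellate cells change from a quiescent to a myofibroblast state, and PDGF-B is a strong mitogen for them. FGFs are held by heparan sulphate at the cell surface and in the matrix, and signal through FGF receptors by the adaptor FRS2.

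The levels are FPKM values, which divide the fragments of a gene by its transcript length and by the depth of the library, and they summed to between 384881 and 396088 per library. The table gives no counts. Read from the smallest steps of FPKM times transcript length among weakly expressed genes, 1 fragment in a transcript of 1 kilobase stood for about 0.0572 to 0.0580 FPKM in every library, so depth was near equal. The knockdowns were partial. LOX averaged 28.4 ± 2.67 FPKM with LOX siRNA against 46.2 ± 2.94 FPKM with control siRNA (SD, n = 3 each, limma adjusted p = 6.73e-04). LOXL1 averaged 6.80 ± 0.997 FPKM with LOXL1 siRNA against 12.3 ± 1.11 FPKM with control siRNA (SD, n = 3 each, limma adjusted p = 0.00432). With LOXL1 siRNA, LOX averaged 51.1 ± 1.39 FPKM, and all 3 libraries lay above every control library (limma adjusted p = 0.456 against control). With LOX siRNA, LOXL1 averaged 11.7 ± 0.959 FPKM and overlapped the controls (limma adjusted p = 0.910). Of 14 stellate and myofibroblast markers, 8 had a mean of at least 1 FPKM, led by VIM, TAGLN, TIMP1 and COL1A1. LHX2 had a mean of 13.2 FPKM, COL3A1 8.02, ACTA2 7.34 and COL1A2 4.04. DES, DCN, LUM and LRAT, which mark stellate cells and fibroblasts in tissue, had means of at most 0.132 FPKM. RGS5 and HAND2 had means of 0.322 and 0.332 FPKM. None of the 5 hepatocyte and 6 endothelial markers in the table had a mean of 1 FPKM; of 6 macrophage and leukocyte markers, CD68 had a mean of 41.8 FPKM, CD14 1.86, PTPRC 0.944 and CD163 0.00556. Of 4 cholangiocyte markers, SOX9 had a mean of 11.8 FPKM, KRT7 3.19, KRT19 0.0833 and EPCAM 0.0144.

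The 9 genes spanned a 243-fold range of mean FPKM, and their order was the same in 9 of 9 libraries. FGFR1, the receptor that FGF2 and FGF5 bind, was highest with a mean over all libraries of 42.0 FPKM, followed by FGF2 at 34.4, PDGFC at 22.3, FGF5 at 12.7, PDGFA at 8.36, PDGFRB at 6.85, PDGFB at 3.09, PDGFD at 0.477 and PDGFRA at 0.173 FPKM. FPKM is a level per transcript length, so these levels are set beside each other as a description. They are not corrected for base composition or for reads shared with overlapping genes. The ranges over the 9 libraries of neighbours in this order did not overlap, except for PDGFA and PDGFRB, where the lowest PDGFA value was 7.50 FPKM and the highest PDGFRB value was 7.75 FPKM. FGFR1 and FGF2 came close, at no less than 39.9 FPKM for FGFR1 and no more than 39.6 FPKM for FGF2.

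**Figure D1:**
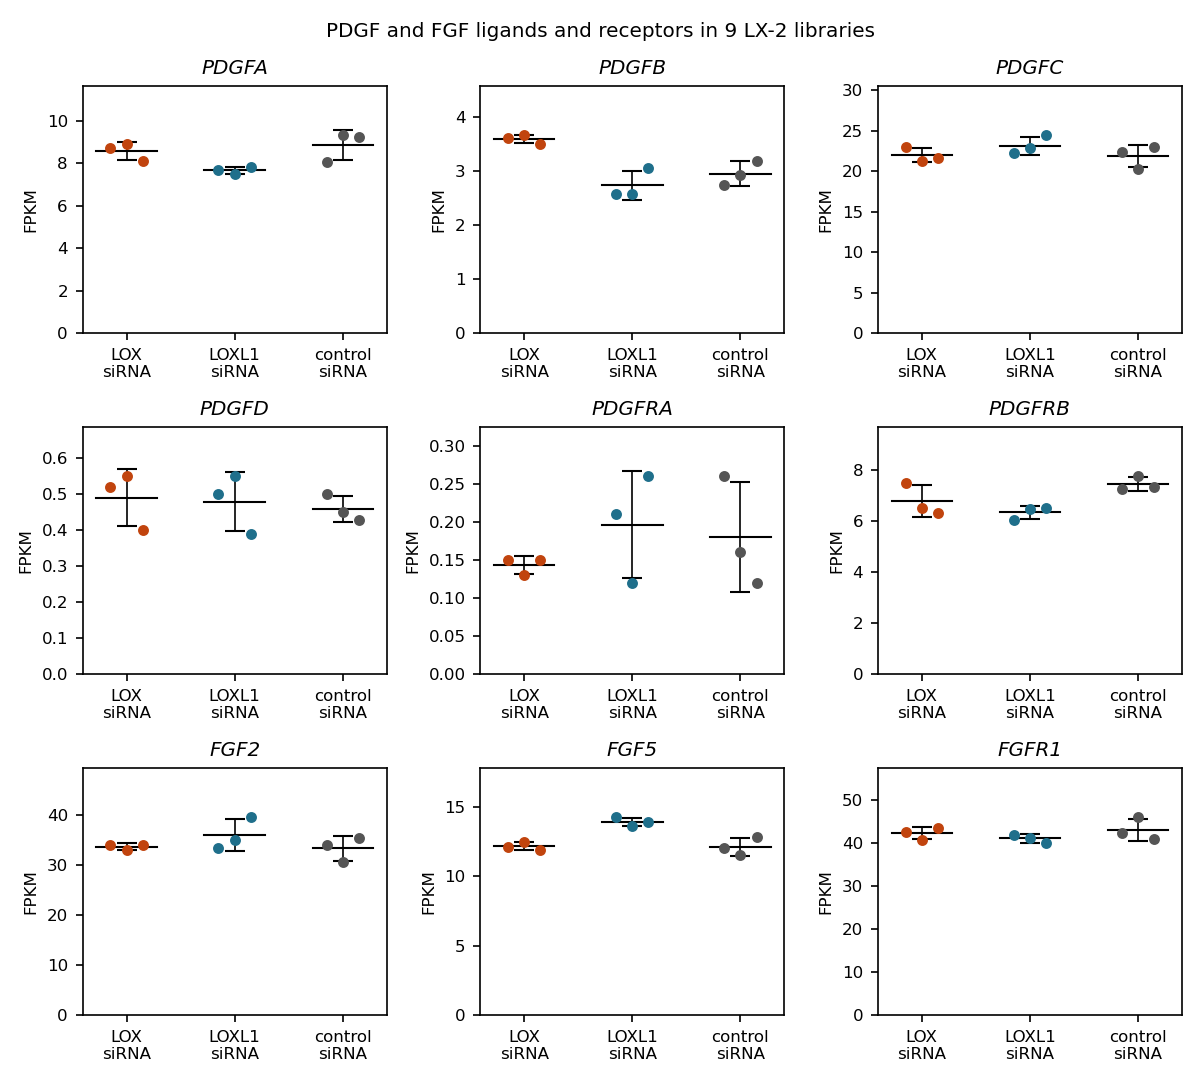
FPKM of the 9 ligand and receptor genes, one panel per gene with its own axis from 0. Points are the 3 libraries of each group, the long line is the group mean and the bar is ± 1 SD; PDGFB sits higher with LOX siRNA, and FGF5 sits higher and PDGFA and PDGFRB lower with LOXL1 siRNA, than with control siRNA, none of which passed the adjusted threshold.

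Among the PDGF chains, PDGFC made up 61.5% to 68.5% of the summed FPKM of the 4 ligands in each library. The receptor pair was unequal: PDGFRB exceeded PDGFRA by 25.0 to 61.1 times in each library. The PDGFRA values would amount to about 13.8 to 29.8 fragments per library at that depth, so its ratio rests on few fragments.

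None of the 7 tested genes passed an adjusted p of 0.05 in any of the 3 comparisons, by limma on log2(FPKM + 1) with Benjamini-Hochberg adjustment over all 11808 genes. Few genes of any kind did: 0.00847% of all genes for LOX siRNA against control (1 gene, LOX itself), 0.0762% with LOXL1 siRNA against control (9 genes) and 0.212% between the knockdowns (25 genes). At an unadjusted p under 0.05 there were 1, 3 and 3 of the 7 genes in those comparisons, where all genes gave 6.93%, 10.2% and 12.8%. Groups that did not overlap were found for 1, 3 and 3 of the 7, against 12.8%, 14.3% and 21.5% of all genes. By direction, LOX siRNA lay above control for 1 gene and below it for 0, where all genes gave 6.78% and 5.97%. LOXL1 siRNA lay above control for 1 and below it for 2, beside 5.74% and 8.57% of all genes. LOX siRNA lay above LOXL1 siRNA for 2 and below it for 1, beside 12.1% and 9.41% of all genes. Their median log2 fold change was 0.0057, -0.065 and 0.041, beside 0.0035, -0.0058 and 0.011 over all genes tested. The 9 genes were chosen with results of these data known, and nothing particular to them is read from these counts.

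The promoter windows of PDGFA, PDGFRB and FGF5 are shown because these are the genes whose LOXL1 siRNA and control libraries did not overlap. Each runs from 250 bases before to 50 bases after the start in RefSeq on GRCh38.p14, read 5′ to 3′ on the strand of the gene. Of the 9 genes, 6 were matched in that table. The PDGFA window, at 520177 to 520476, lies wholly upstream of the deposited gene, whose upper coordinate is 519844. Its RefSeq start therefore differs from the deposited one. Capitals mark matches, on either strand, to a GC box (GGGCGG), an EGR1 element (GCGGGGGCG) and the CArG box of serum response factor.
PDGFA (chr7:520177-520476, minus strand): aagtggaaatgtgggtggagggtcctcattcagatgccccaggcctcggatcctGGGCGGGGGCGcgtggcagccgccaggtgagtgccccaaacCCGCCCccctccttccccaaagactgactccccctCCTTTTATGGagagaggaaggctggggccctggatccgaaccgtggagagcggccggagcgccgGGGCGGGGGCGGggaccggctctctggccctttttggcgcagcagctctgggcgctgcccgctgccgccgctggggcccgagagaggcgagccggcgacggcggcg
PDGFRB (chr5:150155796-150156095, minus strand): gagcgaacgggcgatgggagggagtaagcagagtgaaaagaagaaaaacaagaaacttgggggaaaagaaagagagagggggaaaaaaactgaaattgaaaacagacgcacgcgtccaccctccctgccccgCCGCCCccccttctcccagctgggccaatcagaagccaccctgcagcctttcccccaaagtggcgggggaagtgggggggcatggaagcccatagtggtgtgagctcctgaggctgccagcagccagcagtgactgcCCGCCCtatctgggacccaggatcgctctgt
FGF5 (chr4:80266338-80266637, plus strand): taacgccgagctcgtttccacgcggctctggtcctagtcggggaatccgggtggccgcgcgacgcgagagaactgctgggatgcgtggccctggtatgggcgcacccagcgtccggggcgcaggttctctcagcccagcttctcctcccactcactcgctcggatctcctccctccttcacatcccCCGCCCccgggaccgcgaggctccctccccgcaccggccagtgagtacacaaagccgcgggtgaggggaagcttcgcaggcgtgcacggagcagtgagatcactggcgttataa
The PDGFA window held 4 GC boxes, 2 EGR1 elements that each overlap a GC box, and 1 CArG box. The PDGFRB window held 2 GC boxes and the FGF5 window held 1. No match to TATAAA or to the AP-1 element TGANTCA was found in these 3 windows. Of 27305 promoter windows of that length, 44.6% held a GC box, 5.02% the EGR1 element, 1.29% a CArG box, 11.95% TATAAA and 7.76% the AP-1 element. These matches describe letters and show no binding.

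In RNA from whole cultures, fewer cells that carry a transcript and less of it per cell cannot be told apart. Gene positions are the deposited ones, read as GRCh38. PDGFB (gene ID 5155; minus strand of chromosome 22, 39223359 to 39245055), which encodes the chain that binds both PDGF receptors, had 3.61, 3.66 and 3.51 FPKM with LOX siRNA, 2.57, 2.58 and 3.05 FPKM with LOXL1 siRNA and 2.74, 2.93 and 3.19 FPKM with control siRNA. All 3 LOX siRNA libraries lay above every other library. Against control, LOX siRNA gave a log2 fold change of 0.22 (SE 0.07, 95% interval 0.066 to 0.37; 161st smallest p of the 11808 genes, adjusted p = 0.623), a difference in mean FPKM of 21.7%. Between LOX siRNA and LOXL1 siRNA it was 0.30 (SE 0.07; 93rd smallest p, adjusted p = 0.109), and 0.678% of all genes had a larger change in that comparison. The adjusted p of that difference was lowest without LOXL1 siRNA replicate 3, at 0.0574, and ran up to 0.381 over the other alternatives. For LOXL1 siRNA against control it was -0.08 (SE 0.07; adjusted p = 0.700), with values from -0.14 without LOXL1 siRNA replicate 3 to -0.04 without control replicate 3 when a library was left out.

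PDGFA (gene ID 5154; minus strand of chromosome 7, 497258 to 519844), a ligand of PDGFRα and the gene with the CArG box among the printed promoter windows, had 8.70, 8.89 and 8.10 FPKM with LOX siRNA, 7.66, 7.50 and 7.80 FPKM with LOXL1 siRNA and 8.06, 9.30 and 9.21 FPKM with control siRNA. The LOXL1 siRNA libraries were the lowest 3 of the 9, and the LOX siRNA libraries overlapped the controls. The log2 fold change was -0.19 for LOXL1 siRNA against control (SE 0.06, 95% interval -0.31 to -0.059; 305th smallest p, adjusted p = 0.291) and -0.04 for LOX siRNA against control (SE 0.06; adjusted p = 0.917). Between the knockdowns it was 0.14 (SE 0.06; adjusted p = 0.326).

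PDGFC (gene ID 56034; minus strand of chromosome 4, 156761611 to 156971394), a ligand that must be cut by a protease such as PLAT before it binds PDGFRα, had 22.9, 21.3 and 21.7 FPKM with LOX siRNA, 22.3, 22.8 and 24.4 FPKM with LOXL1 siRNA and 22.3, 20.3 and 22.99 FPKM with control siRNA. The 3 groups overlapped. The 95% interval of the log2 fold change ran from -0.11 to 0.12 for LOX siRNA against control and from -0.034 to 0.20 for LOXL1 siRNA against control. PDGFD (gene ID 80310; minus strand of chromosome 11, 103907186 to 104164299), the PDGFRβ ligand that is cut by PLAU, was at 0.39 to 0.55 FPKM in all libraries with groups that overlapped, and was not tested.

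PDGFRB (gene ID 5159; minus strand of chromosome 5, 150113839 to 150155859), which encodes PDGFRβ, the receptor of the PDGF-B and PDGF-D chains, had 7.48, 6.52 and 6.30 FPKM with LOX siRNA, 6.05, 6.47 and 6.50 FPKM with LOXL1 siRNA and 7.25, 7.75 and 7.33 FPKM with control siRNA. Every LOXL1 siRNA library was below every control library, as were 2 of the 3 LOX siRNA libraries. The log2 fold change was -0.20 for LOXL1 siRNA against control (SE 0.06, 95% interval -0.34 to -0.067; 266th smallest p, adjusted p = 0.282), a difference in mean FPKM of -14.8%. With LOX siRNA against control it was -0.12 (SE 0.06; adjusted p = 0.706), and -0.19 without LOX siRNA replicate 1 and -0.08 without LOX siRNA replicate 3 (adjusted p = 0.521 to 0.969 over all alternatives). These comparisons share the control libraries. Between the knockdowns the log2 fold change was 0.08 (SE 0.06; adjusted p = 0.639), and 0.014 without LOX siRNA replicate 1, 0.12 without LOX siRNA replicate 3 and 0.050 without LOXL1 siRNA replicate 1.

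PDGFRA, which encodes PDGFRα (gene ID 5156; plus strand of chromosome 4, 54229097 to 54298245), had 0.15, 0.13 and 0.15 FPKM with LOX siRNA, 0.21, 0.12 and 0.26 FPKM with LOXL1 siRNA and 0.26, 0.16 and 0.12 FPKM with control siRNA. The groups overlapped, and PDGFRA was not tested.

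FGF2 (gene ID 2247; plus strand of chromosome 4, 122826708 to 122898235), a heparin-binding growth factor exported without a signal peptide, had 34.1, 33.0 and 34.1 FPKM with LOX siRNA, 33.4, 35.1 and 39.6 FPKM with LOXL1 siRNA and 34.1, 30.7 and 35.5 FPKM with control siRNA. The groups overlapped, with LOXL1 siRNA replicate 3 the highest and control replicate 2 the lowest library. The log2 fold change was 0.11 for LOXL1 siRNA against control (SE 0.06, 95% interval -0.027 to 0.24; adjusted p = 0.578) and 0.015 for LOX siRNA against control (SE 0.06, 95% interval -0.12 to 0.15; adjusted p = 0.974). The value for LOXL1 siRNA was 0.039 without LOXL1 siRNA replicate 3, 0.047 without control replicate 2 and 0.061 with length and GC trends removed (adjusted p = 0.336 to 0.861 over all alternatives). FGF2 overlaps NUDT6, a gene on the other strand, by 5592 bases in the deposited positions. The sources used here do not say whether strand was used in counting, so reads from the shared stretch cannot be told apart. FGF2 is not alone in this. In GENCODE 29, genes on the other strand also overlap FGFR1 (4208 bases), PDGFB (2868 bases), PDGFD (DDI1, 2609 bases) and PDGFC (878 bases). A gene on the same strand overlaps PDGFRA by 66176 bases. NUDT6 had 6.31, 7.41 and 7.28 FPKM with LOX siRNA, 7.42, 7.07 and 6.32 FPKM with LOXL1 siRNA and 5.65, 4.72 and 8.88 FPKM with control siRNA, so its groups overlapped.

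FGF5 (gene ID 2250; plus strand of chromosome 4, 80266588 to 80291017), a secreted FGF known for ending the growth phase of hair, had 12.1, 12.5 and 11.9 FPKM with LOX siRNA, 14.2, 13.6 and 13.9 FPKM with LOXL1 siRNA and 12.01, 11.5 and 12.8 FPKM with control siRNA. All 3 LOXL1 siRNA libraries lay above the other 6. The log2 fold change was 0.19 for LOXL1 siRNA against control (SE 0.05, 95% interval 0.083 to 0.29; 107th smallest p, adjusted p = 0.202), a difference in mean FPKM of 14.8%. Set against LOXL1 siRNA, LOX siRNA gave -0.18 (SE 0.05; 184th smallest p, adjusted p = 0.146), with adjusted p-values of 0.0732 (without control replicate 2) to 0.474 over the alternatives. For LOX siRNA against control it was 0.0057 (SE 0.05, 95% interval -0.098 to 0.11; adjusted p = 0.988).

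FGFR1 (gene ID 2260; minus strand of chromosome 8, 38411138 to 38468834) had 42.4, 40.7 and 43.5 FPKM with LOX siRNA, 41.9, 41.2 and 39.9 FPKM with LOXL1 siRNA and 42.1, 45.9 and 40.9 FPKM with control siRNA. The groups overlapped in each comparison. The 95% interval of its log2 fold change was -0.12 to 0.074 for LOX siRNA against control and -0.16 to 0.034 for LOXL1 siRNA against control, the narrowest intervals among the 7 genes.

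**Figure D2:**
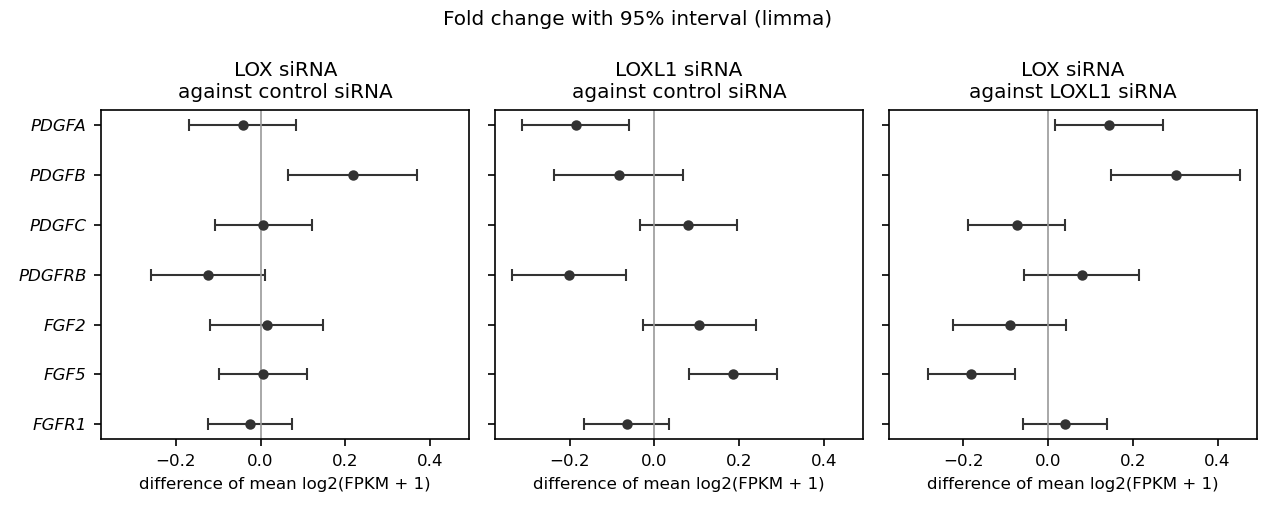
Differences of mean log2(FPKM + 1) for the 7 tested genes in the 3 comparisons, with 95% intervals from limma that are not adjusted for the number of genes. The intervals lie to one side of 0 for PDGFB with LOX siRNA, for PDGFA, PDGFRB and FGF5 with LOXL1 siRNA, and for PDGFA, PDGFB and FGF5 between the knockdowns.

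Base composition moved with these levels. Transcripts of FGF5, FGF2 and PDGFC had a GC content of 36.7%, 37.5% and 40.5%, and those of PDGFA, FGFR1, PDGFRB and PDGFB one of 52.7%, 56.4%, 57.6% and 60.6%. Control replicate 2 stood apart from the other libraries in this respect. Its deviation from the mean of each gene followed GC content across all tested genes with a Spearman's rho of 0.695. The rho was -0.0558 and -0.288 in control replicates 1 and 3. LOXL1 siRNA replicates 1 to 3 had -0.307, -0.221 and -0.253, all below 0. LOX siRNA replicates 1 to 3 had 0.169, -0.0152 and 0.0288. In control replicate 2, FGF5, FGF2 and PDGFC had their lowest value of the 9 libraries. PDGFA, FGFR1 and PDGFRB had their highest there, and PDGFB its 6th highest. Against transcript length, the rho of these deviations was lowest in LOX siRNA replicates 1 to 3, at -0.285, -0.279 and -0.249. It was 0.308, 0.197 and -0.0489 in LOXL1 siRNA replicates 1 to 3, and 0.376, -0.166 and 0.138 in control replicates 1 to 3. With the length and GC trends of each library removed, the log2 fold change for LOXL1 siRNA against control was 0.14 for FGF5 (SE 0.04; limma adjusted p = 0.267), -0.16 for PDGFA (SE 0.06; limma adjusted p = 0.359), -0.15 for PDGFRB (SE 0.06; limma adjusted p = 0.409) and -0.02 for PDGFB (SE 0.07; limma adjusted p = 0.940). Without control replicate 2, and with the trends left in, the log2 fold changes of FGF5, PDGFA and PDGFRB were 0.15, -0.15 and -0.18. The difference of PDGFB for LOX siRNA against control was 0.25 with the trends removed (SE 0.07; limma adjusted p = 0.742). Over all alternatives the limma adjusted p ran from 0.137 to 0.504 for FGF5, from 0.249 to 0.544 for PDGFA and from 0.244 to 0.600 for PDGFRB with LOXL1 siRNA, and from 0.305 to 0.969 for PDGFB with LOX siRNA. The part of base composition and of transcript length in these differences was not tested beyond these values.

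**Figure D3:**
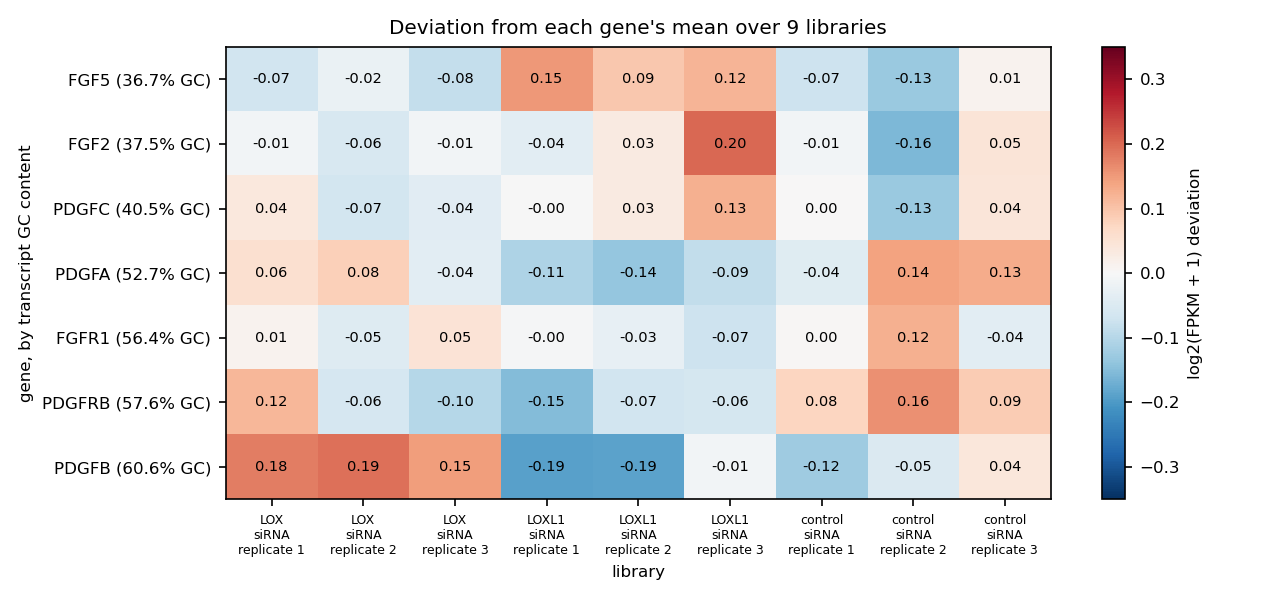
Deviation of each tested gene from its own mean log2(FPKM + 1) over the 9 libraries, with genes ordered by the GC content of their transcript and libraries by group. Control replicate 2 is below 0 for the 3 genes of lowest GC content and above 0 for PDGFA, FGFR1 and PDGFRB; PDGFB is above 0 in all 3 LOX siRNA libraries.

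The remaining ligands and receptors were mostly at low levels. Of 20 other FGF ligand genes, 15 were in the table and 2 of these passed the filter, FGF1 with 6.10 to 7.23 FPKM over the libraries and FGF11 with a mean of 1.79 FPKM; the others did not exceed 1.05 FPKM in any library. Of 6 other receptor and co-receptor genes, FGFRL1, a receptor-like protein without a kinase domain, had a mean of 17.5 FPKM, and FGFR2, FGFR3, FGFR4, KL and KLB stayed at or under 0.93 FPKM. PDGFRL, which encodes a PDGF receptor-like protein, had a mean of 1.17 FPKM. None of these 4 tested genes passed in any comparison, the lowest adjusted p being 0.414 for FGF11 between the knockdowns (limma log2 fold change 0.17, SE 0.08).

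Beyond the 9 genes, 94 other genes of the PDGF and FGF system were tested across 8 lists, which include the 4 genes just described. In each of the 3 comparisons 0 of the 94 passed limma's adjusted threshold in either direction. At an unadjusted p under 0.05 there were 9 in LOX siRNA against control, 16 in LOXL1 siRNA against control and 14 in the direct comparison, where the shares over all 11808 genes were 6.93%, 10.2% and 12.8%. Their median log2 fold change was -0.013, -0.0086 and -0.0020 in the same comparisons. Named below are genes with the smallest p of each list.

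Genes of extracellular processing, storage and binding (20 tested) include heparan sulphate proteoglycans that hold FGFs. SDC4, a syndecan that acts as a co-receptor of FGF2, had 57.4, 59.8 and 59.4 FPKM with LOX siRNA, 52.5, 53.8 and 53.8 FPKM with LOXL1 siRNA and 59.1, 58.4 and 58.4 FPKM with control siRNA. All 3 LOXL1 siRNA libraries lay below the other 6 (limma log2 fold change against control -0.13, SE 0.03, adjusted p = 0.188). GPC1, a glypican, averaged 49.4 ± 1.06 FPKM with LOXL1 siRNA against 56.2 ± 3.91 FPKM with control siRNA (SD, n = 3 each; limma adjusted p = 0.217). HSPG2, which encodes perlecan, averaged 2.87 ± 0.150 FPKM with LOX siRNA against 3.43 ± 0.272 FPKM with control siRNA (SD, n = 3 each; limma adjusted p = 0.650).

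Of 28 receptor adaptors and proximal signalling genes, STAT3, a transcription factor phosphorylated below these receptors, averaged 27.97 ± 0.140 FPKM with LOXL1 siRNA against 30.8 ± 0.684 FPKM with control siRNA (SD, n = 3 each; limma adjusted p = 0.217). The SRC-family kinase gene FYN averaged 57.6 ± 0.970 FPKM with LOX siRNA against 53.4 ± 0.811 FPKM with LOXL1 siRNA (limma adjusted p = 0.223). FRS2, the main FGF receptor adaptor, averaged 6.07 ± 0.115 FPKM with LOX siRNA against 6.85 ± 0.127 FPKM with LOXL1 siRNA (limma adjusted p = 0.299).

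Of 13 genes of the RAS-ERK cascade, NRAS, a RAS GTPase, had 33.2, 32.8 and 32.8 FPKM with LOXL1 siRNA against 28.9, 27.98 and 29.8 FPKM with control siRNA (limma log2 fold change 0.18, SE 0.04, adjusted p = 0.119). The scaffold gene KSR1 averaged 4.20 ± 0.0346 FPKM with LOX siRNA against 5.04 ± 0.399 FPKM with LOXL1 siRNA (limma adjusted p = 0.292).

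Of 15 genes of receptor down-regulation and ERK feedback, PTPN1, a tyrosine phosphatase that acts on PDGF receptors, had 45.2, 43.5 and 43.9 FPKM with LOXL1 siRNA against 50.4, 50.3 and 49.5 FPKM with control siRNA. Its groups did not overlap, and its limma log2 fold change was -0.18 (SE 0.03, adjusted p = 0.0829). PTPN12, another tyrosine phosphatase, averaged 67.1 ± 1.09 FPKM with LOXL1 siRNA against 61.7 ± 1.88 FPKM with control siRNA (limma adjusted p = 0.289). DUSP5, a nuclear ERK phosphatase, averaged 16.0 ± 0.877 FPKM with LOX siRNA against 14.4 ± 0.716 FPKM with LOXL1 siRNA (limma adjusted p = 0.290).

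Among 14 tested immediate early and ETS target genes, EGR1, a zinc-finger transcription factor induced by ERK signalling, had 17.0, 15.9 and 16.6 FPKM with LOX siRNA, 13.2, 12.6 and 12.1 FPKM with LOXL1 siRNA and 13.98, 15.2 and 11.99 FPKM with control siRNA. All 3 LOX siRNA libraries lay above the other 6. The limma log2 fold change was 0.36 between LOX siRNA and LOXL1 siRNA (SE 0.07, adjusted p = 0.0646) and 0.25 for LOX siRNA against control (SE 0.07, adjusted p = 0.569). CCND1, which encodes cyclin D1, averaged 226 ± 6.25 FPKM with LOX siRNA against 248 ± 3.91 FPKM with LOXL1 siRNA (SD, n = 3 each; limma adjusted p = 0.131). ETV5, an ETS factor that follows FGF signalling, averaged 31.4 ± 0.362 FPKM with LOX siRNA against 33.4 ± 0.756 FPKM with control siRNA (limma adjusted p = 0.706).

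**Figure D4:**
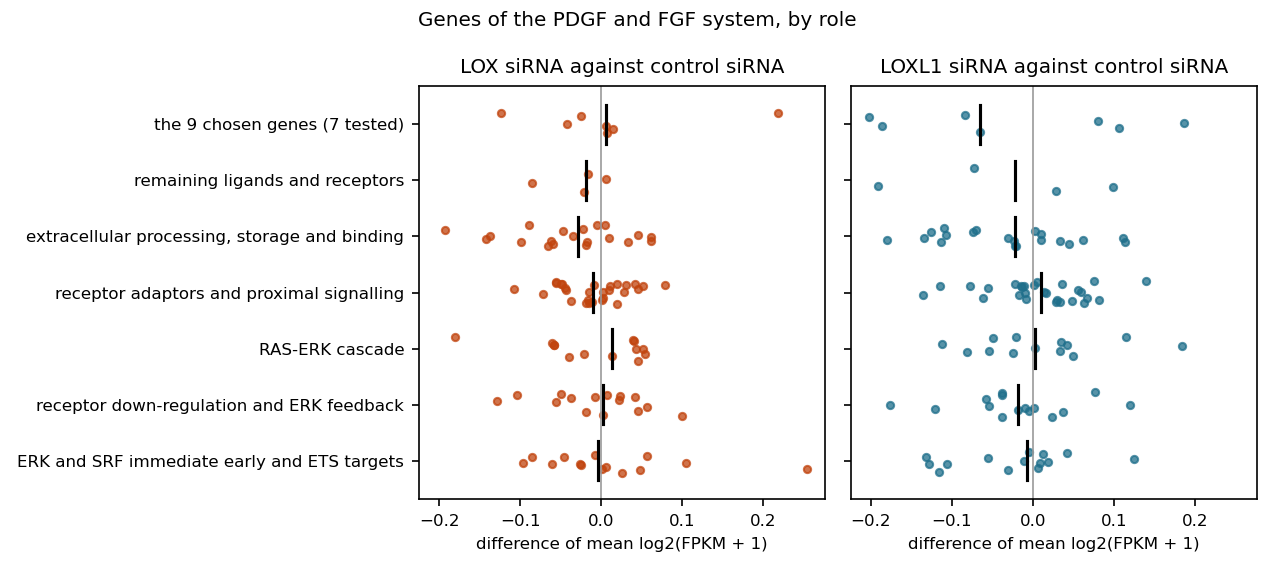
Differences of mean log2(FPKM + 1) for each knockdown against control siRNA, with one point per tested gene, grouped by role, and a black bar at the median of each row. Points lie between -0.20 and 0.25, medians lie near 0, and no point passed the adjusted threshold.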

How the data were processed

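RNA was sequenced from 9 LX-2 libraries, 3 per siRNA group; control replicate 3 was grouped by its title, since its treatment label omits the word siRNA. The authors deposited FPKM values with 2 decimals, per the file headers; TopHat2 2.0.10 and build hg19 are listed in the submitters' processing notes. No source used here names the tool that computed FPKM. Gene positions are printed as deposited. The lower coordinate of each of the 9 genes lies within 1157 bases of that in RefSeq GRCh38.p14, so positions are read as GRCh38. The table holds no counts, so no counting interval is given.

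Genes with at least 1 FPKM in at least 3 libraries were tested as log2(FPKM + 1) in one model of 3 groups (limma 3.58.1 in R 4.3.3, mean-variance trend, 6 residual degrees of freedom). Adjustment was Benjamini-Hochberg across the 11808 tested genes, at a threshold of 0.05. A log2 fold change is the difference between group means of log2(FPKM + 1), given with its standard error (SE); on this scale it can understate changes of low genes. With 3 libraries a group, exact permutation reaches no p below 0.1. The model was tested on simulated data. GC content came from GENCODE transcripts, for 99.65% of tested genes. The 9 genes and the lists were chosen with earlier results of these data known. The text names the 9 genes, both siRNA targets, NUDT6, every tested remaining ligand and receptor, and the 3 genes of smallest p in each other list, 1 of which is not reported here. Alternatives were other scalings, filters, a pseudocount of 0.1, other models, removal of length and GC trends by splines of 4 degrees of freedom, and each library left out.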

Additional observations from a re-analysis of the deposited data

How the results depend on the processing

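The number of the 9 genes called stayed at 0 in all 3 comparisons under each of 18 alternative settings, 9 of which left out a library; under a mean FPKM of 5 or more PDGFB was not tested. The count over all genes moved more. For LOX siRNA against control, 1 gene became 2 without the filter and 2 with length and GC trends removed, and 1 to 2 with a library left out (2 without LOX siRNA replicate 1). For LOXL1 siRNA against control, 9 became 15 with those trends removed, and 6 to 15 with a library left out, the highest without LOXL1 siRNA replicate 3. For LOX siRNA against LOXL1 siRNA, 25 became 11 with quantile normalization, 4 without the filter, 8 without the mean-variance trend and 15 with the replicate block. It rose to 34 with a mean FPKM of 5 or more and to 33 when only the compared groups were fitted. With a library left out that count ran from 5 (without LOX siRNA replicate 2 or 3) to 62 (without control siRNA replicate 2). It was 9 without LOX siRNA replicate 1, 6, 13 and 39 without LOXL1 siRNA replicates 1, 2 and 3, and 14 without control siRNA replicate 1; the cause was not tested. Same-numbered libraries did not deviate together (r of -0.0676 to 0.0253 across genes, and -0.0758 to 0.0817 for differently numbered libraries). With 3 libraries a group these values cannot settle whether shared numbers pair the libraries, which the labels do not state.

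Directions turned only for genes whose log2 fold change for LOX siRNA against control lay near 0. PDGFC became -9.75e-04 with quantile normalization and -0.0236 with length and GC trends removed, FGF5 -0.0043 and -0.0086 under the same settings, and FGFR1 0.021 with the trends removed. With a library left out the ranges were -0.044 to 0.043 for PDGFC, -0.044 to 0.058 for FGF2, -0.028 to 0.044 for FGF5 and -0.059 to 0.022 for FGFR1. The depth limits PDGFRA and PDGFD most.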

Other observations

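Each tested gene was set beside the genes of at least 5 FPKM whose log2(FPKM + 1) followed it most closely over the 9 libraries, as a description. The closest was SNX9 for PDGFB (Pearson's r = 0.975), MSRB1 for PDGFA (r = 0.957), EFR3A for PDGFC (r = 0.944), SIX5 for PDGFRB (r = 0.962), SEMA3C for FGF2 (r = 0.965), ANLN for FGF5 (r = 0.965) and ABCA2 for FGFR1 (r = 0.966). Between 3 and 43 genes exceeded an r of 0.9 with each, out of 8979 or 8980 compared. Among the 7 genes themselves, PDGFC and FGF2 were most alike (r = 0.937, n = 9 libraries); both have transcripts of low GC content, and both were lowest in control replicate 2 and highest in LOXL1 siRNA replicate 3. All these values share the same libraries and their depth and base composition.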
